A study of Mus musculus with 4 samples.

Results

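DEAD and DEAH box RNA helicases are enzymes that use ATP to unwind RNA or to strip proteins from it. Their transcripts were followed in leukemic cells that had lost Msi2, whose product (Musashi 2) binds RNA. Members were taken by symbol alone, as every gene row that begins with Ddx or Dhx and a number, without the sex-linked pair Ddx3x and Ddx3y. This gave 52 members of 23284 gene rows. C57BL/6 mice gave the RNA, from c-Kit high leukemic cells obtained by sorting. The c-Kit receptor marks immature blood cells. The Msi2 -/- group held 2 mice and the control group, with loxP-flanked (Msi2 flox/flox) alleles, held 2 mice, with 1 library per mouse. The series title places the cells in MLL leukemia. For the oncogene, the Cre driver and the age of the mice, the sources used here give nothing.

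The family takes its name from a run of amino acids in motif II, which binds ATP together with a metal ion. DEAD box proteins mostly open short stretches of RNA locally, while many DEAH box proteins move along a strand. Between them they serve pre-mRNA splicing, ribosome assembly in the nucleolus, mRNA export, translation and decay, and the sensing of viral RNA. In blood, DDX41 is known as a gene mutated in human myeloid neoplasms, and RIG-I, the product of Ddx58, is a sensor of viral RNA that interferon induces.

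Coding sequence around motif II holds the run that gives the family and its branches their names. The stretches below are read on the coding strand from GENCODE M21 on GRCm38, for 4 well known members and for the 3 members that DESeq2 called. Capitals mark the 12 bases that code for motif II, and the lower-case bases of Ddx39b run on across an intron.
Ddx5, capitals at chr11:106785193-106785204, minus strand: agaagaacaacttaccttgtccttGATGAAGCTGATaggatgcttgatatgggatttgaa
Ddx39b, capitals at chr17:35247090-35247101, plus strand: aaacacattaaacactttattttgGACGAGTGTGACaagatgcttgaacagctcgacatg
Ddx21, capitals at chr10:62591881-62591892, minus strand: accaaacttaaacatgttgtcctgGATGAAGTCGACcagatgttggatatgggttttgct
Dhx15, capitals at chr5:52171496-52171507, minus strand: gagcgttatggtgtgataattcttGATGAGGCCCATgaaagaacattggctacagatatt
Ddx58, capitals at chr4:40223885-40223896, minus strand: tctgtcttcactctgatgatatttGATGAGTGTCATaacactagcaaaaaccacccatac
Dhx33, capitals at chr11:70999808-70999819, minus strand: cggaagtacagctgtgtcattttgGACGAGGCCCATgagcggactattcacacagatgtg
Dhx32, capitals at chr7:133742714-133742725, minus strand: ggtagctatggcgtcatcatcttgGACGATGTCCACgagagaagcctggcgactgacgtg
A search of the coding sequences found such a stretch in 35 of 36 Ddx members and in 16 of 16 Dhx members. The search accepted only aspartate at the first codon, glutamate or aspartate at the second, and aspartate or histidine at the last. The third had to be alanine, cysteine, valine, isoleucine or serine. No other residue could be counted, so the tallies show only how the stretches divide between the permitted ones. The search also required permitted residues just before the stretch and a match to another helicase motif, motif I, within a set distance upstream. Only the first match in a gene was kept. The last codon was GAT or GAC, for aspartate, in 32 Ddx members and in 0 Dhx members. It was CAT or CAC, for histidine, in all 16 Dhx members and in 3 Ddx members, namely Ddx11, Ddx58 and Ddx60. The second codon was GAA or GAG in 50 of the 51 stretches, the exception being Dhx32. Ddx26b, which RefSeq now lists as Ints6l, gave no such stretch.

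Gene counts totalled between 78659396 and 87564774 in the Msi2 -/- libraries and between 72273679 and 79845492 in the control libraries. Counts are given as CPM, a count scaled to 1e+06 counts of the TMM-adjusted library, and 3 counts correspond to between 0.0343 and 0.0412 CPM. Msi2 had 8 and 17 counts in the Msi2 -/- libraries and 2804 and 3562 counts in the controls. Kit stood at 68.1 and 57.1 CPM in the Msi2 -/- libraries and at 50.4 and 51.9 CPM in the controls. Of the markers of other cells, Hba-a1, Hba-a2, Pax5, Ms4a1, Cd3e, Cd3g and Cd8a were at 0 counts in all 4 libraries. Other genes of the erythroid, B and T cell lists were detected. Klf1, of the erythroid list, had 0.938 and 0.676 CPM in the Msi2 -/- libraries and 0.876 and 0.823 CPM in the controls. Epor and Alas2 were lower still. All genes of the megakaryocyte list were detected. Gp9 was the highest of them, at 1.59 and 3.08 CPM in the Msi2 -/- libraries and 2.06 and 1.06 CPM in the controls. Cd79b had 20.4 and 18.5 CPM in the Msi2 -/- libraries and 26.1 and 26.3 CPM in the controls, lower without overlap (adjusted p = 0.335 by edgeR and 0.0389 by DESeq2), and Lck had 6.5 and 9.45 CPM in the Msi2 -/- libraries and 8.96 and 9.95 CPM in the controls. Markers of late neutrophils summed to 1400 and 2220 CPM in the Msi2 -/- libraries and to 1020 and 678 CPM in the controls. Xist, the transcript of the inactive X chromosome, stood at 0.469 and 0.624 CPM in the Msi2 -/- libraries and at 1450 and 654 CPM in the controls, so sex and genotype cannot be told apart. Nothing beyond separate mice marks the replicates, so p-values measure the spread between these mice.

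Most helicase transcripts stood close to their control level after the loss of Msi2. Of the 52 members, 51 had enough counts to be tested, and their median log2 fold change (Msi2 -/- minus control) was -0.03, beside 0.00 over all 13215 genes tested. In 44 members the log2 fold change was under 0.2 in size, or 86.3% of those tested, where 54.3% of all genes tested lay in that range. The members were also more abundant than most genes, with a median mean level of 87.4 CPM against 30.0 CPM over all genes tested, and the part of abundance in this was not tested. For 42 members the 95% interval of the log2 fold change lay within 0.5 of 0, so a change of that size was outside it. For the other 9 it reached further. As bulk samples were sequenced, fewer cells of a type and less RNA per cell cannot be told apart.

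edgeR's quasi-likelihood test called 0 members in either direction at an adjusted p under 0.05, where it called 0% of all genes higher and 0.00757% lower. With no adjustment, at p under 0.05, edgeR had 1 member higher, Ddx58, beside 6.69% of all genes, and 2 members lower, Dhx33 and Dhx32, beside 6.17%. The same 3 genes, 1 higher and 2 lower, passed DESeq2's adjusted p of 0.05, beside 3.1% of all genes higher and 2.71% lower. limma-voom called 0 members. With 2 mice per group edgeR's adjusted p was 0.122 for Msi2 itself (log2 fold change -8.07, adjusted p by DESeq2 = 6.35e-80), so its 0 calls among helicases do not show that they did not change. The groups did not overlap for 9 members higher and 14 members lower in the Msi2 -/- mice, where 23.7% of all genes tested lay higher and 24.6% lower in this way. Read against the 51 members tested, these counts lie near or under the shares over all genes.

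**Figure D1:**
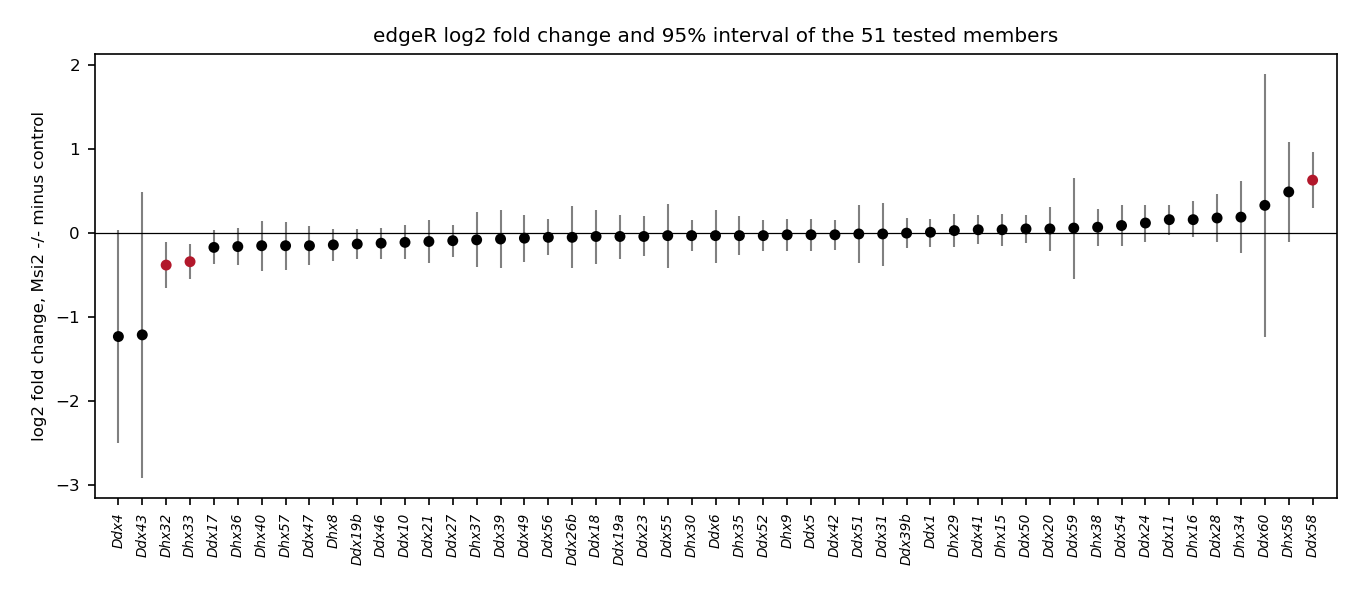
Log2 fold change (Msi2 -/- minus control, y axis) of the 51 tested helicase genes in order of size, from edgeR. Points are the estimates, bars their 95% intervals, and red points the 3 members that DESeq2 called at an adjusted p under 0.05. Most intervals lie within 0.5 of 0, and Ddx4, Ddx43 and Ddx60 have the widest.

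Set against exonic length, the order of transcript levels in this family was led by the same 2 genes in both genotypes. Ddx5, a coactivator of transcription and splicing, had 148 CPM per kb in the Msi2 -/- mice and 150 CPM per kb in the controls. Ddx39b, a splicing and export factor, had 139 CPM per kb in each. Ddx21, a nucleolar helicase, followed with 75.9 CPM per kb in the Msi2 -/- mice and 81.4 CPM per kb in the controls. Ddx17, the close paralog of Ddx5, had 63.2 CPM per kb in the Msi2 -/- mice and 71.0 CPM per kb in the controls. At the low end stood Ddx4, Ddx43 and Ddx60, all under 0.3 CPM per kb in both genotypes, and Ddx25. These values use the exons of GENCODE M21 joined over all transcripts of a gene, while the counts were made on the build mm9.

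**Figure D2:**
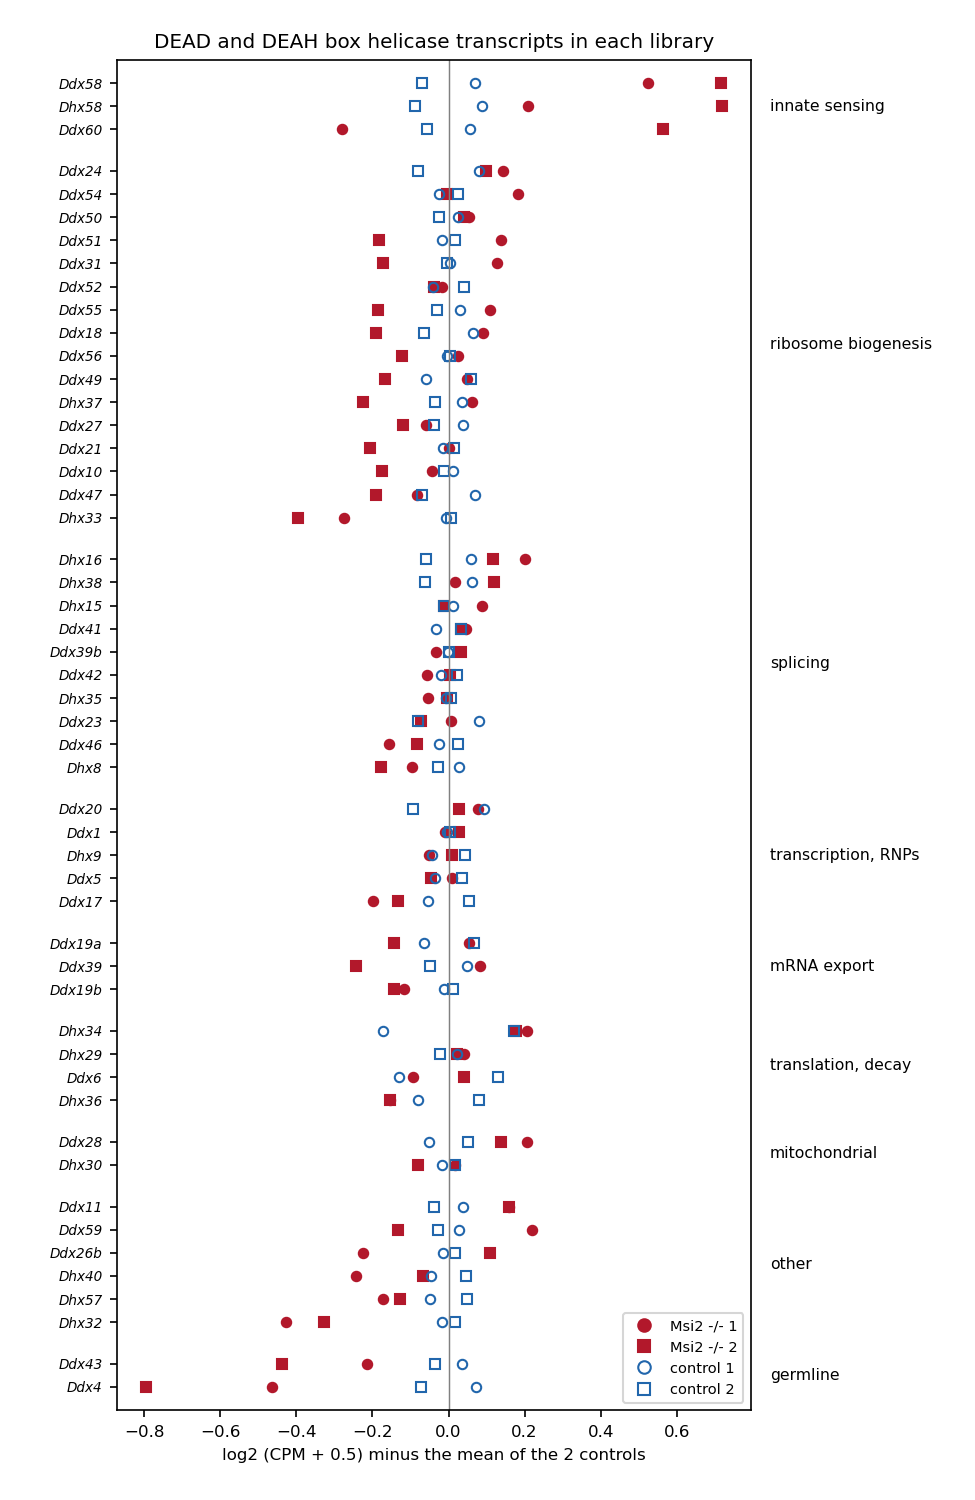
Level of each tested helicase transcript in each of the 4 libraries, as log2 (CPM + 0.5) minus the mean of the 2 controls (x axis), with genes grouped by role. Filled red symbols are Msi2 -/- mice and open blue symbols control mice. Both Msi2 -/- mice lie right of the controls for Ddx58 and Dhx58 and left of them for Dhx33 and Dhx32.

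The sensors of foreign RNA held the member with the largest rise. Ddx58, which encodes RIG-I, had 37.6 and 43.0 CPM in the Msi2 -/- mice, against 27.3 and 24.7 CPM in the control mice. Both Msi2 -/- mice lay above both controls. Ddx58 averaged 40.3 ± 3.84 CPM in Msi2 -/- mice and 26.0 ± 1.88 CPM in control mice (SD, n = 2 each). This gave a log2 fold change of 0.63 (SE 0.124, 95% interval 0.30 to 0.97, edgeR adjusted p = 0.293, DESeq2 adjusted p = 0.00131). DESeq2's call was lost without Msi2 -/- replicate 2 (adjusted p = 0.109), without control 1 (adjusted p = 0.0766) and without control 2 (adjusted p = 0.425), and the log2 fold change by edgeR stayed between 0.53 and 0.74 with any 1 library left out. The summed level of late neutrophil markers was also above both controls in both Msi2 -/- mice, and its part in the Ddx58 result was not tested. Of the 10 neutrophil markers 9 were tested, 6 with a log2 fold change above 0 and 3 below. DESeq2 called 4 higher and 1 lower, beside 3.1% of all genes higher and 2.71% lower. Most of the sum came from S100a8, S100a9 and Ngp. S100a8 had 537 and 938 CPM in the Msi2 -/- mice and 273 and 210 CPM in the controls. The 3 below 0 were Cxcr2 (log2 fold change -1.63, adjusted p by DESeq2 = 0.0319), Mmp8 (-1.81, not called) and Mmp9 (-0.71, not called), and Retnlg, not tested, stood between 0.0493 and 0.110 CPM.

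Dhx58 encodes LGP2, a relative of RIG-I that modulates the same pathway. It had 20.5 and 29.4 CPM in the Msi2 -/- mice, against 18.8 and 16.6 CPM in the controls. Both Msi2 -/- mice were above both controls, the first by little. The log2 fold change was 0.49 (SE 0.219; adjusted p = 0.427 by edgeR and 0.286 by DESeq2), and it was 0.21 without Msi2 -/- replicate 2 and 0.74 without Msi2 -/- replicate 1. Ddx60, an interferon-induced helicase gene, was low, at 0.481 and 1.26 CPM in the Msi2 -/- mice and 0.740 and 0.645 CPM in the controls. Its groups overlapped, and its log2 fold change of 0.33 had an interval from -1.23 to 1.89. All 3 sensor genes were higher in Msi2 -/- replicate 2 than in replicate 1, and lower in control 2 than in control 1.

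**Figure D3:**
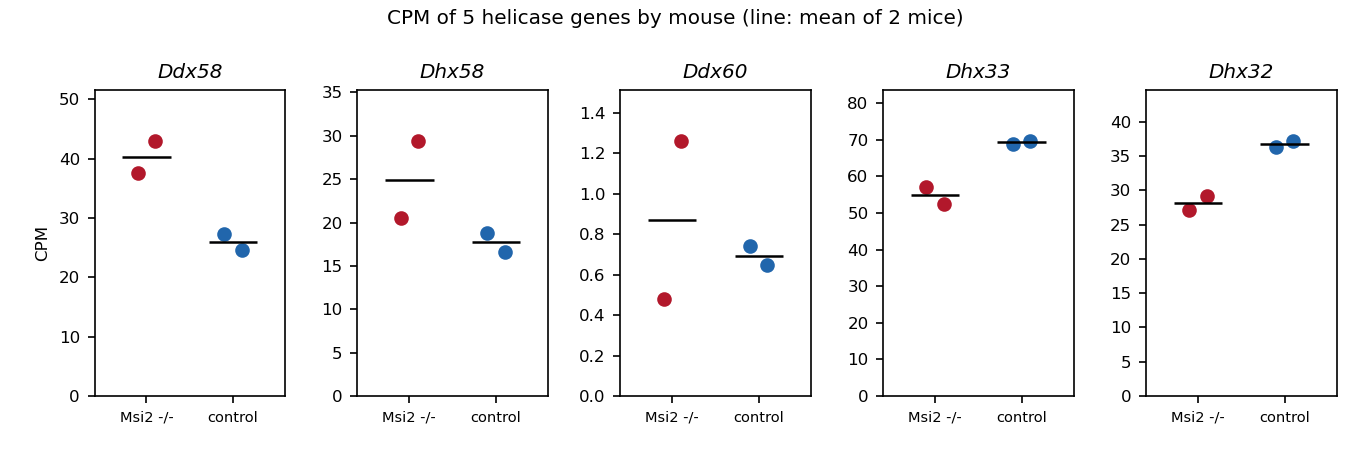
CPM (y axis, from 0) of the 3 sensor genes and of Dhx33 and Dhx32 in each mouse, with Msi2 -/- mice in red, control mice in blue, and a line at the mean of 2 mice. The 2 Msi2 -/- mice lie above the controls for Ddx58 and Dhx58, on both sides of them for Ddx60, and below them for Dhx33 and Dhx32.

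Promoters of these genes were searched for 2 copies of GAAA with any 2 bases between them, the core of the interferon-stimulated response element, in RefSeq windows of 250 bases before to 50 bases after the start site, on both strands. Windows were given for 46 members. Dhx58 was not among them, so it was not searched. The 46 members had 57 windows, and the motif was in a window of 3 members, Ddx58, Ddx60 and Ddx49. It was in 3.443% of all 32851 windows, which is a share of windows and not of genes. It is shown in capitals for the 2 sensor genes, with coordinates on GRCm38.p6.
Ddx58, chr4:40239814-40239883, minus strand: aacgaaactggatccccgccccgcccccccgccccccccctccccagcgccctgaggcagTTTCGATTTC
Ddx60, chr8:61928014-61928086, plus strand: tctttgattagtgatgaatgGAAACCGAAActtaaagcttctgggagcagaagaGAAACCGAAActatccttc
In Ddx58 the motif is on the opposite strand and begins 3 bases into the transcript. In Ddx60 the 2 motifs begin 53 and 19 bases before the start site. The match is a description of these letters.

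Other genes of RIG-I signalling moved in both directions. Of 20 tested, 14 lay above their control level, and the median log2 fold change was 0.10. By edgeR 0 passed the adjusted threshold. Its unadjusted p was under 0.05 for 4 higher and 1 lower, beside 6.69% of all genes higher and 6.17% lower. By DESeq2 3 were higher and 1 lower after adjustment, beside 3.1% and 2.71% of all genes. The groups did not overlap for 8 higher and 5 lower, beside 23.7% and 24.6% of all genes tested. The member of smallest p was Stat2, a transcription factor gene of the interferon response, with 66.2 and 70.1 CPM in the Msi2 -/- mice and 51.8 and 49.7 CPM in the controls (log2 fold change 0.42, SE 0.0759, adjusted p by DESeq2 = 0.00115). Among DESeq2's other calls, and named after their values were seen, Oas1a was higher (log2 fold change 0.50) and Tmem173, the gene for the DNA sensing adaptor STING, was lower (log2 fold change -0.39). Ifih1, which encodes the related sensor MDA5, had 23.6 and 29.5 CPM in the Msi2 -/- mice and 24.7 and 24.5 CPM in the controls, with overlap. Mavs, the adaptor of RIG-I at mitochondria, had 30.9 and 27.3 CPM in the Msi2 -/- mice and 31.2 and 33.6 CPM in the controls. Both of these were also chosen after their values were seen.

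Helicases of ribosome biogenesis, which help fold and cut ribosomal RNA in the nucleolus, made up the largest role with 16 tested members. Their median log2 fold change was -0.05, and 13 lay below 0 and 3 above. DESeq2 called 0 higher and 1 lower. That gene, Dhx33, which promotes ribosomal RNA synthesis, had 57.2 and 52.6 CPM in the Msi2 -/- mice, against 69.0 and 69.7 CPM in the controls. Both Msi2 -/- mice lay below both controls. Dhx33 averaged 54.9 ± 3.20 CPM in Msi2 -/- mice and 69.4 ± 0.538 CPM in controls (SD, n = 2 each). On the log2 scale the difference was -0.34 (SE 0.0779, 95% interval -0.55 to -0.13, edgeR adjusted p = 0.308, DESeq2 adjusted p = 0.0278). With any 1 library left out DESeq2 no longer called it, with adjusted p-values of 0.192 without Msi2 -/- replicate 1, 0.475 without replicate 2, 0.544 without control 1 and 0.973 without control 2. Its log2 fold change then ran from -0.39 to -0.28 by edgeR.

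The next smallest p in this role was that of Ddx47, a helicase gene of early ribosomal RNA processing. It had 106 and 98.4 CPM in the Msi2 -/- mice and 118 and 107 CPM in the controls (log2 fold change -0.15, SE 0.0853, edgeR adjusted p = 0.52). The groups did not overlap, but by little. Ddx21, which couples transcription by RNA polymerases to ribosomal RNA processing, had 421 and 365 CPM in the Msi2 -/- mice and 417 and 425 CPM in the controls. Msi2 -/- replicate 2 was the low library, and replicate 1 stood among the controls. Ddx50, the paralog of Ddx21, had 97.5 and 96.7 CPM in the Msi2 -/- mice and 95.6 and 92.4 CPM in the controls. Ddx10, Ddx27, Ddx47 and Dhx33 were the 4 members lower without overlap, and Ddx24 and Ddx50 the 2 higher, beside 24.6% of all genes tested lower and 23.7% higher in this way. Apart from Dhx33 and Ddx47, log2 fold changes in this role ran from -0.11 for Ddx10 to 0.12 for Ddx24.

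For these genes the 2 Msi2 -/- mice differed from each other in 1 direction. All 16 were lower in Msi2 -/- replicate 2 than in replicate 1, while 50.1% of all genes tested were lower in that library. Between the controls, 9 of the 16 were lower in control 2 than in control 1. The median difference between Msi2 -/- replicates (2 minus 1) was -0.17 on the log2 scale, from -0.32 for Ddx51 to -0.01 for Ddx50. Between the controls the median difference was -0.02, with a range from -0.15 to 0.12. Without Msi2 -/- replicate 1 the median log2 fold change of the role was -0.17, and without replicate 2 it was 0.05. The 16 members summed to 1910 and 1710 CPM in the Msi2 -/- mice and to 1880 and 1860 CPM in the controls.

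**Figure D4:**
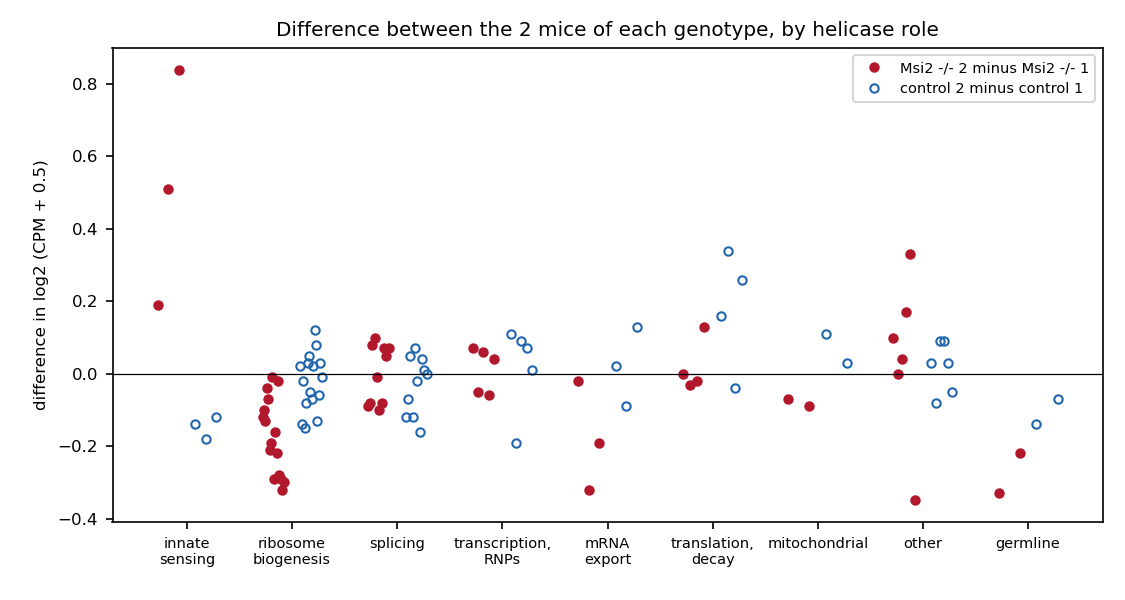
Difference between the 2 mice of each genotype, in log2 (CPM + 0.5) on the y axis, for each tested helicase by role. Filled red points are Msi2 -/- replicate 2 minus replicate 1 and open blue points control 2 minus control 1. All 16 red points of ribosome biogenesis lie below 0 and all 3 of innate sensing above 0.

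Other genes of ribosome assembly were also lower in that library. In a list of 26 tested genes for nucleolar processing factors, 26 were lower in Msi2 -/- replicate 2 than in replicate 1, with a median of -0.18 on the log2 scale, and 17 were lower in control 2 than in control 1. The list's median log2 fold change between genotypes was -0.07, and 20 lay below 0. By edgeR 0 were called after adjustment (at an unadjusted p under 0.05, 0 higher and 1 lower). DESeq2 called 0 higher and 1 lower. That gene was Wdr12, for a subunit of the PeBoW complex of large subunit assembly, with 118 and 113 CPM in the Msi2 -/- mice and 149 and 150 CPM in the controls (log2 fold change -0.38, SE 0.0637, adjusted p by DESeq2 = 0.000184). The 2 Msi2 -/- libraries also differed in markers of cell type. Progenitor and primary granule markers summed to 9580 CPM in replicate 1 and 15100 CPM in replicate 2, against 13900 and 14100 CPM in the controls. Members of this list differed between the Msi2 -/- replicates in both directions, with a median of 0.03 on the log2 scale (2 minus 1). Elane had 4220 CPM in replicate 1 and 6630 CPM in replicate 2, Prtn3 1410 and 2320 CPM, and Ctsg 920 and 3180 CPM. These granule genes carried the difference between the replicate sums. Mpo, also of this list, had 2120 and 2160 CPM in the Msi2 -/- mice, against 4000 and 4950 CPM in the controls. Between genotypes DESeq2 called 0 of the 9 genes higher and 2 lower, beside 3.1% of all genes higher and 2.71% lower. Cd34 (79.8 and 7.02 CPM), Kit (68.1 and 57.1 CPM), Hoxa9 (161 and 127 CPM) and Meis1 (96.6 and 69 CPM) were lower in replicate 2. Monocyte markers summed to 1060 CPM in replicate 1 and 2070 CPM in replicate 2, against 1490 and 1430 CPM in the controls. Ly6c2 (942 CPM in replicate 1 and 1650 CPM in replicate 2) and Ccr2 (20 and 312 CPM) carried most of that sum. Of the 8 monocyte markers 2 were lower in replicate 2, Cd14 (70.1 and 43.6 CPM) and Irf8 (6.02 and 5.25 CPM). Irf8 had 15.3 and 34.7 CPM in the controls (log2 fold change between genotypes -2.15, adjusted p by DESeq2 = 5.76e-05). Between genotypes 4 of the 8 lay above 0 and 4 below. DESeq2 called 1 higher and 1 lower, beside 3.1% of all genes higher and 2.71% lower. The part of these marker differences in the ribosome biogenesis values was not tested.

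Splicing helicases drive the rearrangements of the spliceosome, and their transcripts stood close to control. All 10 tested members had a log2 fold change under 0.2 in size, with 5 above 0, 5 below 0 and a median of -0.01. By edgeR and DESeq2 0 were called after adjustment, and edgeR had 0 at an unadjusted p under 0.05. Dhx16, whose protein activates the spliceosome for its first step, had 138 and 130 CPM in the Msi2 -/- mice and 125 and 115 CPM in the controls. It was higher without overlap, with a log2 fold change of 0.16 (SE 0.0796, edgeR adjusted p = 0.456). Dhx8, which releases spliced mRNA, had 96.4 and 91 CPM in the Msi2 -/- mice and 105 and 101 CPM in the controls (log2 fold change -0.14, SE 0.0704, edgeR adjusted p = 0.475).

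Dhx15, which takes apart spent spliceosomes, and Ddx41 overlapped between the genotypes. Dhx15 had 388 and 362 CPM in the Msi2 -/- mice and 368 and 362 CPM in the controls, with a 95% interval of the log2 fold change from -0.15 to 0.23. Ddx41 had 95.9 and 94.9 CPM in the Msi2 -/- mice and 90.7 and 95 CPM in the controls, with an interval from -0.13 to 0.21. Ddx39b was at 513 and 537 CPM in the Msi2 -/- mice and at 524 and 525 CPM in the controls. Of the other members, Ddx46, which acts at branch site recognition, was lower without overlap (208 and 219 CPM in the Msi2 -/- mice, against 228 and 236 CPM in the controls). Ddx23, Ddx42, Dhx35 and Dhx38 overlapped, with log2 fold changes from -0.04 to 0.07.

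Some DEAH box helicases are switched on by proteins with a glycine-rich G-patch, and 20 genes of such cofactors and of related nuclear factors were tested. Their median log2 fold change was 0.01, with 11 above 0. By edgeR 0 were called after adjustment (at an unadjusted p under 0.05, 1 higher and 0 lower). DESeq2 called 1 higher and 0 lower. That gene was Gpkow, the partner of DHX16, with 72.5 and 73.4 CPM in the Msi2 -/- mice and 61.0 and 56.0 CPM in the controls (log2 fold change 0.32 with SE 0.0773; adjusted p = 0.32 by edgeR and 0.0352 by DESeq2). Both Msi2 -/- mice lay above both controls for Gpkow as for Dhx16. Tfip11, the partner of DHX15, chosen after its values were seen, had 93.1 and 90.7 CPM in the Msi2 -/- mice and 85.9 and 81.8 CPM in the controls (log2 fold change 0.13).

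Among helicases tied to transcription and ribonucleoprotein assembly, Ddx17 had the smallest p. It had 472 and 494 CPM in the Msi2 -/- mice, against 522 and 563 CPM in the controls, a log2 fold change of -0.17 (SE 0.0749, 95% interval -0.37 to 0.04, edgeR adjusted p = 0.432). Both Msi2 -/- mice were below both controls. Its partner Ddx5 had 872 and 839 CPM in the Msi2 -/- mice and 845 and 889 CPM in the controls, with overlap and an interval from -0.21 to 0.17. The difference between these paralogs was not tested. Dhx9, a helicase of double-stranded RNA and of transcription, had 350 and 365 CPM in the Msi2 -/- mice and 352 and 374 CPM in the controls. Ddx1, of the tRNA ligase complex, had 225 and 231 CPM in the Msi2 -/- mice and 226 and 227 CPM in the controls. Its log2 fold change of 0.01 had an interval from -0.16 to 0.17.

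Ddx20 encodes Gemin3 of the SMN complex, which assembles small nuclear ribonucleoproteins. It had 64.1 and 61.8 CPM in the Msi2 -/- mice and 64.8 and 56.8 CPM in the controls (log2 fold change 0.05, SE 0.0946). The 8 tested genes of its partners had a median log2 fold change of -0.17, with 2 above 0 and 6 below. Without overlap 1 was higher and 6 were lower, beside 23.7% and 24.6% of all genes tested. By edgeR 0 were called after adjustment (at an unadjusted p under 0.05, 0 higher and 1 lower). DESeq2 called 0. The member of smallest p was Gemin4, with 66.5 and 60.6 CPM in the Msi2 -/- mice and 75.6 and 72.9 CPM in the controls (log2 fold change -0.22, SE 0.0804, adjusted p by DESeq2 = 0.268).

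For mRNA export, 3 members were tested and 0 were called. Ddx19b, whose protein removes export factors at the nuclear pore, had 62.7 and 61.6 CPM in the Msi2 -/- mice and 67.5 and 68.7 CPM in the controls (log2 fold change -0.13, SE 0.066, edgeR adjusted p = 0.464). The groups did not overlap. Its near-identical neighbour Ddx19a had 125 and 109 CPM in the Msi2 -/- mice and 115 and 126 CPM in the controls. Reads without a unique alignment were set aside in a row that names no gene. Reads that match both genes alike may thus be missing from both, which was not tested. Ddx39, the paralog of Ddx39b, had 251 and 200 CPM in the Msi2 -/- mice and 245 and 229 CPM in the controls. Its log2 fold change was 0.08 without Msi2 -/- replicate 2 and -0.23 without replicate 1. Ddx25, a germ cell export helicase, had 6 and 0 counts in the Msi2 -/- mice and 4 and 4 counts in the controls, too few for a test. The 13 tested export partners had a median log2 fold change of 0.01 and 0 calls by edgeR (0 at an unadjusted p under 0.05) and by DESeq2. Zc3h11a had the smallest p among them (log2 fold change -0.16, SE 0.0645).

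Translation and decay were represented by 4 members, of which 0 were called. Dhx36, which unwinds G-quadruplexes in mRNA, had 82.6 and 82.6 CPM in the Msi2 -/- mice and 87.0 and 97.3 CPM in the controls (log2 fold change -0.16, SE 0.0811, edgeR adjusted p = 0.47). The 2 Msi2 -/- mice were equal and below both controls, which differed, and the log2 fold change was -0.07 without control 2. Dhx34, of nonsense-mediated decay, had 24.7 and 24.2 CPM in the Msi2 -/- mice and 18.9 and 24.1 CPM in the controls. Control 1 was the low library, and the log2 fold change of 0.19 was 0.03 without it. Ddx6, the decapping activator of processing bodies, had 278 and 305 CPM in the Msi2 -/- mice and 271 and 325 CPM in the controls, with overlap and an interval from -0.35 to 0.28. Dhx29, a helicase of translation initiation, had a log2 fold change of 0.03. The 11 partners of DDX6 had a median of -0.01, with 0 calls by edgeR (0 at an unadjusted p under 0.05) and by DESeq2. Patl1 had the smallest p among them (log2 fold change 0.12, SE 0.0654).

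The mitochondrial helicases Ddx28 and Dhx30 both serve the assembly of the mitochondrial ribosome. Ddx28 had 32.0 and 30.5 CPM in the Msi2 -/- mice and 26.7 and 28.7 CPM in the controls, higher without overlap (log2 fold change 0.18, SE 0.105, edgeR adjusted p = 0.529). Dhx30 had 120 and 112 CPM in the Msi2 -/- mice and 117 and 120 CPM in the controls, with overlap.

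Among the remaining members Dhx32 was lower in both Msi2 -/- mice. It had 27.2 and 29.2 CPM in the Msi2 -/- mice, against 36.3 and 37.2 CPM in the controls. Dhx32 averaged 28.2 ± 1.46 CPM in Msi2 -/- mice and 36.7 ± 0.594 CPM in controls (SD, n = 2 each). This gave a log2 fold change of -0.38 (SE 0.0994, 95% interval -0.65 to -0.11, edgeR adjusted p = 0.333, DESeq2 adjusted p = 0.0292). DESeq2 no longer called it with any 1 library left out, with adjusted p-values of 0.507 without Msi2 -/- replicate 1, 0.207 without replicate 2, 0.589 without control 1 and 1 without control 2. By edgeR the log2 fold change then ran from -0.44 to -0.32. Exons of Dhx32 overlap those of Bccip by 204 bases in GENCODE M21. The rows that name no gene, left out here, include a row named ambiguous. Whether reads on such bases went there is not stated in these sources, which do not give the strand setting. 7 members in all overlap an exon of another counted gene (Ddx5, Ddx17, Ddx49, Ddx59, Dhx30, Dhx32 and Dhx57). Bccip itself had 75.7 and 74.3 CPM in the Msi2 -/- mice and 75.8 and 81.1 CPM in the controls.

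Ddx11, a DNA helicase of sister chromatid cohesion, had 76.3 and 76.4 CPM in the Msi2 -/- mice and 70.2 and 66.5 CPM in the controls, higher without overlap (log2 fold change 0.16, SE 0.0674, edgeR adjusted p = 0.419). Dhx40 and Dhx57 were lower without overlap, each with a log2 fold change of -0.15. Ddx26b, the 1 X-linked member, had 42.8 and 54.1 CPM in the Msi2 -/- mice and 49.6 and 50.7 CPM in the controls. Ddx59 was the next lowest after the members under 1 CPM, at 7.89 and 6.07 CPM in the Msi2 -/- mice and 6.85 and 6.57 CPM in the controls.

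The germ cell helicases were barely detected. Ddx4, the mouse vasa gene, had 0.423 and 0.234 CPM in the Msi2 -/- mice and 0.839 and 0.713 CPM in the controls. Ddx43 had 0.160 and 0.065 CPM in the Msi2 -/- mice and 0.284 and 0.247 CPM in the controls. Both were lower without overlap, with log2 fold changes of -1.23 (SE 0.469) and -1.21 (SE 0.629), and neither was called (edgeR adjusted p = 0.396 and 0.476, DESeq2 adjusted p = 0.431 and 0.715). Their 95% intervals included 0, from -2.50 to 0.04 for Ddx4 and from -2.91 to 0.49 for Ddx43. The Ddx43 value was -1.99 without Msi2 -/- replicate 1 and -0.72 without replicate 2, and the Ddx4 value was -1.71 and -0.87 in the same order.

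Helicase genes related by sequence or function but with other symbols were also close to control. Of 12 tested, 6 lay above 0 and 6 below, with a median of 0.00. By edgeR 0 were called after adjustment (at an unadjusted p under 0.05, 1 higher and 1 lower). DESeq2 called 1 higher and 0 lower. That gene was Skiv2l, for the helicase of the Ski complex that feeds mRNA to the exosome, with 151 and 144 CPM in the Msi2 -/- mice and 123 and 122 CPM in the controls (log2 fold change 0.27 with SE 0.0657; adjusted p = 0.323 by edgeR and 0.0229 by DESeq2). The DEAD box translation factor Eif4a1 and its paralog Eif4a2, chosen after their values were seen, had log2 fold changes of 0.08 and -0.21. Eif4a2 had 217 and 195 CPM in the Msi2 -/- mice and 233 and 244 CPM in the controls.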

How the data were processed

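RNA-seq was analysed from 4 libraries, 2 of Msi2 -/- and 2 of control mice. The authors deposited raw read counts per gene, and per the submitters' processing notes Trimmomatic, STAR, HTSeq, DESeq and the build mm9 were used. Their versions and the strand setting are not given in these sources. The 5 closing rows that name no gene held 19.1 to 20.1% of each file's total and were left out. Genes were kept by filterByExpr (minimum count 10, minimum total 15), scaled by TMM and tested with edgeR 4.0.16 (quasi-likelihood test, Benjamini-Hochberg adjustment over 13215 genes) in R 4.3.3. DESeq2 1.42.0 and limma 3.58.1 were alternatives, beside other scaling and filters, a likelihood ratio test, a replicate block and leaving out each library. Log2 ratios per library used CPM + 0.5. The test was tried on simulated counts first. The labels do not say whether replicate numbers pair the samples. Across genes, the replicate differences of the 2 groups had a correlation of 0.01, which cannot exclude pairing.

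Members and gene lists were chosen with earlier results of these data known. Named were members called by edgeR or DESeq2, the 2 of smallest edgeR p per role, the best-known members of the roles (Ddx5, Ddx6, Ddx21, Dhx9, Dhx15, Ddx41, Ddx58), and the gene of smallest p per companion list. Others were named after their values were seen. Exons, coding sequences and overlaps came from GENCODE M21 (GRCm38), and promoters from RefSeq (GRCm38.p6). No coordinate was converted between builds. Some marker and pathway genes are not reported here.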

Additional observations from a re-analysis of the deposited data

How the results depend on the processing

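Across RLE scaling, both filters on low counts, the likelihood ratio test and limma-voom, edgeR and limma called 0 helicases at an adjusted p under 0.05. By DESeq2 1 was called higher and 2 lower, and 2 were higher at its unadjusted p under 0.05. The replicate block pairs samples by their replicate number. With it edgeR called 0 helicases. DESeq2 then called 1 higher (Ddx58) and 0 lower, with 462 calls over all genes against 776 without the block. Leaving out 1 library gave 1 to 2 higher and 0 to 2 lower at edgeR's unadjusted p, and 0 to 2 higher and 0 to 0 lower by DESeq2. Members without overlap were then 13 to 20 higher and 16 to 26 lower, since a lone sample overlaps less. In such fits the lone sample is assumed to vary like the other group. DESeq2's calls over all genes also varied widely between these fits. Shares over all genes are not set beside the member counts with 1 library left out. Those counts thus cannot show whether helicases differed from other genes.

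The median over members stayed between -0.06 and 0.01 with 1 library left out. Of 24 named members, log2 fold changes near 0 changed sign in 11 of these fits, with ranges of -0.06 to 0.02 for Dhx30, -0.23 to 0.08 for Ddx39, -0.04 to 0.15 for Ddx20, -0.05 to 0.02 for Ddx5, -0.16 to 0.11 for Ddx6, -0.20 to 0.00 for Ddx21, -0.06 to 0.02 for Dhx9 and 0.00 to 0.09 for Dhx15, and the cause was not tested. Under the other settings 0 named members changed sign. With 2 mice per group, precision is set by the spread between mice, and for Ddx4, Ddx43, Ddx60 and Ddx25 also by counts.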
